A study of Mus musculus with 4 samples.

Results

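Small RNA of extracellular vesicles released by RAW264.7, an established mouse line with macrophage features, was compared across all RNA classes between the library labelled shDis3l2 and the library labelled shNS. Both came from cells with a short hairpin RNA induced by doxycycline, a non-silencing hairpin (shNS) or one against Dis3l2 (shDis3l2). Doxycycline was given at 1 µg per mL for 3 days, the medium was then replaced by one with vesicle-depleted serum for 24 h, and vesicles were taken from a sucrose gradient and treated with 20 U of micrococcal nuclease for 30 min. The series holds 4 libraries, the other two from the producing cells, and 1 library stands for each group, so no difference has a replicate check. Genes and other features with at least 100 estimated counts over both vesicle libraries were taken as measured, which left 8460 of the 40945 with a count in any library. Of these, 7194 were protein-coding genes, and 8265 lay outside miRNA hairpins.

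Extracellular vesicles are membrane-bound particles that cells release and that carry proteins and RNA, much of it fragments of longer RNAs. Dis3l2 encodes a cytoplasmic exonuclease that degrades RNA from the end at which terminal uridylyl transferases have added a tail of uridines, and its known substrates include the let-7 precursor and aberrant structured RNAs such as Y RNAs, snRNAs and 7SL. The kit used captures short fragments with ends fit for ligation, so a count on an mRNA is a count of short pieces of it and not of the full-length message.

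The vesicle libraries held 18190135 (shNS) and 17612856 (shDis3l2) counts, and a floor of 3 counts stood for 0.165 and 0.17 counts per 1000000 (CPM). Dis3l2 itself had 1713 vesicle counts under the label shNS and 1894 under shDis3l2, 95.3% of them on a transcript annotated for nonsense-mediated decay, and 41 and 13232 counts in the cell libraries. The gene thus went against the label of the cells, and each library is named below by its label alone. Of 20 macrophage markers, 17 were measured in the vesicles, while none of the 6 fibroblast, 5 epithelial and 5 lymphocyte markers was. Of the other marker sets 2 of 4 neuronal, 1 of 6 erythroid and serum and 1 of 4 endothelial genes were measured.

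Between the vesicle libraries, protein-coding transcripts took 12.9% of counts under the label shNS and 16.9% under the label shDis3l2, and lncRNA transcripts 20.0% and 27.6%. miRNA hairpins went the other way, from 19.1% to 10.5%, and snoRNAs with scaRNAs from 0.436% to 0.272%. The 4.5S RNA and SINE sequences, which are short repeat-derived RNAs, took 0.0403% and 0.123%, the widest gap of any class by transcript type (log2 1.60). Shares add up to the whole of a library, so more of one RNA and less of the others cannot be told apart from them, nor can fewer vesicles with an RNA and less of it per vesicle.

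**Figure D1:**
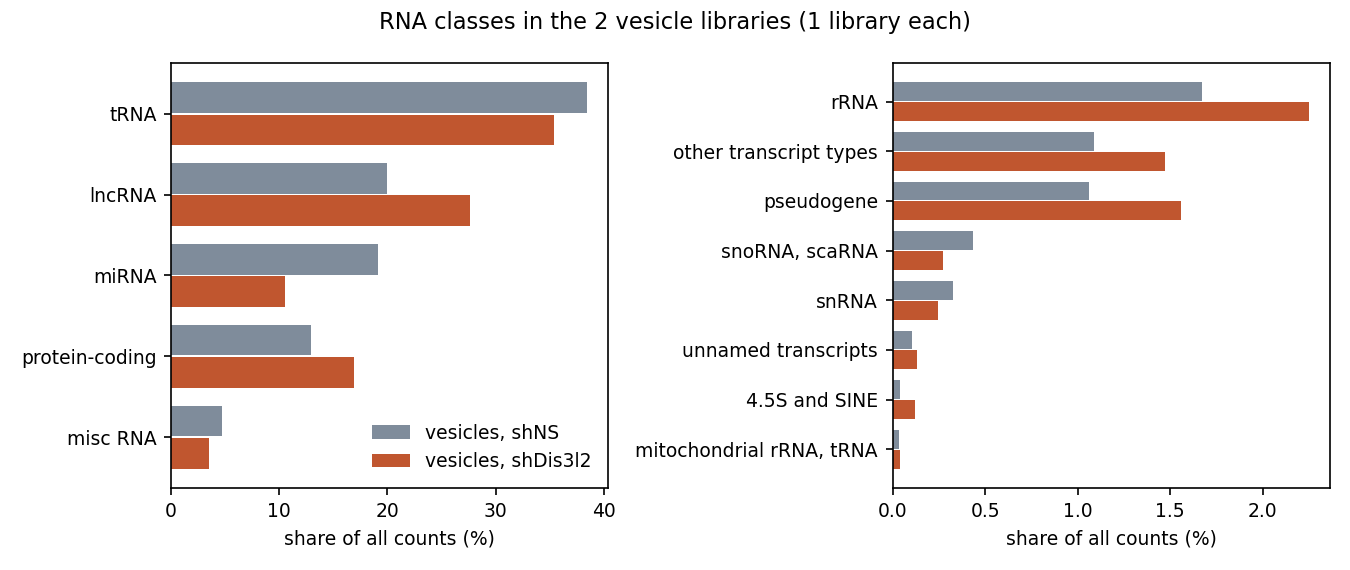
Share of all counts (%) held by each class of RNA in the vesicle libraries labelled shNS (grey) and shDis3l2 (orange), 1 library each, with classes above 3% on the left and the others on the right. The share of miRNA hairpins is 10.5% in the library labelled shDis3l2 against 19.1%, and that of protein-coding transcripts 16.9% against 12.9%.

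Fragments of mRNA were, on the whole, a little more abundant in the vesicle library labelled shDis3l2. The median log2 ratio of CPM over the 7194 protein-coding genes was 0.32, with quartiles of 0.05 and 0.61, and 77.7% of the genes had a ratio above 0. A gene was called where its ratio was at least 2-fold and the exact 95% interval of the ratio, which covers counting error only, excluded 1. By that rule 627 genes (8.72% of those measured) were higher in the library labelled shDis3l2 and 85 (1.18%) were lower, while 6482 were not called. Over all classes 883 of 8460 features (10.4%) were higher and 213 (2.52%) lower.

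The split between higher and lower depended on the scale. With edgeR TMM factors all ratios dropped by 0.26, with DESeq2 size factors by 0.21, with the total outside miRNA hairpins by 0.15 and with the total of protein-coding genes by 0.39. Higher genes made up 88.1% of the called mRNA genes on the total of all features, 72.1% with TMM factors, 76.1% with size factors and 60.7% on the total of protein-coding genes. Over all classes they made up 80.6% of the called features, 61.8% with TMM factors, 65.7% with size factors, 70.4% on the total outside miRNA hairpins and 51.5% on that of protein-coding genes. On that last scale the median mRNA gene stood at -0.07, so the direction of the typical mRNA rested on the scale. Every other scale lowered the ratios, by at most 0.39, so a ratio between 0 and 0.39 lay below 0 on at least one of them. The other values are on the total of all features, and the mRNA median of 0.32 is the level to read them against.

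**Figure D2:**
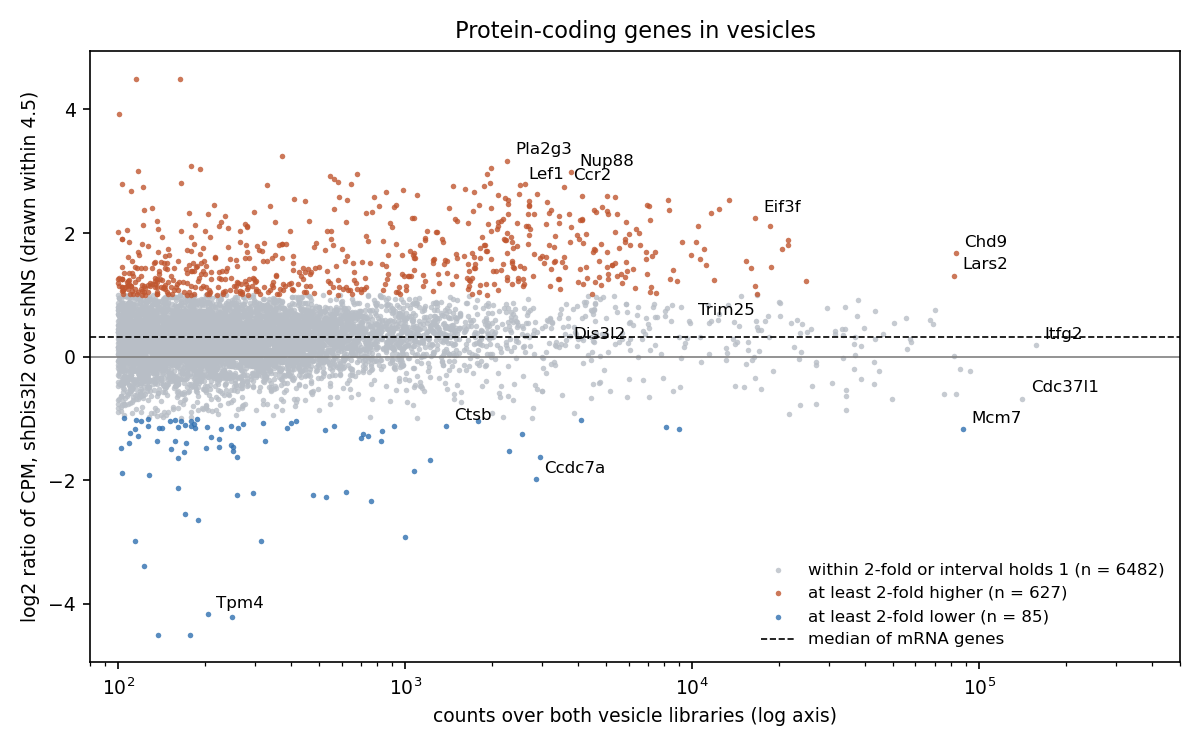
Each point is a protein-coding gene with at least 100 counts, placed by its counts over both vesicle libraries (log axis) and its log2 ratio of CPM, shDis3l2 over shNS, with ratios beyond 4.5 drawn at 4.5. The 627 genes at least 2-fold higher (orange) are spread over the whole range of counts. The 85 lower genes (blue) are mostly at low counts, as are most measured mRNA genes, and the dashed line is the median of 0.32.

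Genes with many counts were called higher more often than genes with few. The share called higher was 6.13% among genes with 100 to 200 counts, 6.87% from 400 to 1000, 23.6% from 1000 to 3000 and 41.8% from 3000 to 10000, then 18.2% at 10000 or more. The share called lower stayed between 0.826% and 1.41% in every range. The 627 higher genes together held 9.27% of all mRNA counts under the label shNS and 22.5% under the label shDis3l2.

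The counts of called and of abundant genes sat mostly on a single transcript model each. In the median higher gene 97.3% of the vesicle counts were assigned to 1 transcript, against 82.2% over all measured mRNA genes, and in 30.8% of the higher genes that main transcript was not of the coding type, such as a retained intron, against 14.5% over all. The lower genes had 93.7% and 25.9%, and genes with at least 1000 counts that were not called 96.9% and 22.1%, so this was not particular to the higher genes. The higher genes were also scarce in the cells, with a median of 45 counts over both cell libraries beside 603 in vesicles, where the median mRNA gene had 60 and 264. The 144 genes that were at least 4-fold higher had a median of 31 counts in cells and 1634 in vesicles. When the main transcript of each gene was left out, 1877 protein-coding genes still had 100 counts, of which 292 (15.6%) were higher and 186 (9.91%) lower. They held 141 of the 627 higher genes, and 27 of these (19.1%) were again at least 2-fold higher, a share near that over all (median log2 0.52). They held 15 of the 85 lower genes, and 5 of these (33.3%) were again lower.

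The largest ratio among abundant mRNAs was that of Pla2g3, a secreted phospholipase A2 (chromosome 11, 3488284 to 3499350, plus strand, GRCm38). It had 233 counts in vesicles under the label shNS and 2039 under the label shDis3l2, 9.02-fold higher (log2 3.17, 95% interval 2.98 to 3.38), and 11 and 8 counts in the cell libraries. Palm, which encodes the membrane protein paralemmin, had 221 and 1777 vesicle counts (log2 3.05), and Nup88, a nuclear pore protein, 438 and 3350 (log2 2.98). Saxo1, a microtubule-binding protein, had 228 and 1706 counts in vesicles (log2 2.95) but 1 and 0 in cells. All 4 genes were thus read almost only from vesicles. A main transcript not of the coding type held 95.5% of the counts of Nup88 (a retained intron), 98.6% of Palm and 100% of Saxo1. Outside its main transcript Nup88 had 81 and 91 counts (log2 0.21).

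Membrane and signalling genes came next in this ranking. Spns2, a transporter of sphingosine-1-phosphate, had 253 and 1719 vesicle counts (log2 2.81), and Ccr2, the chemokine receptor that brings monocytes to inflamed tissue, 478 and 3107 (log2 2.75, interval 2.61 to 2.89). Ccr2 had 26 and 21 counts in the cell libraries, too few for a ratio there. Sync, an intermediate filament protein, had 337 and 2278 (log2 2.80), all of them on a retained-intron transcript. Spns2 had 97.5% of its counts on a transcript of that type.

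Genes of transcription were in the same group of 15. Lef1, a transcription factor of the Wnt pathway, had 327 and 2178 vesicle counts (log2 2.78). Med29 of the Mediator complex had 354 and 2131 (log2 2.63), and the zinc-finger genes Zfp382 and Plagl1 249 and 1633 and 158 and 943 (log2 2.76 and 2.62). Metabolic genes in it were Sdhaf3, an assembly factor of succinate dehydrogenase (218 and 1392 counts, log2 2.72), and Nudt1, which removes oxidised nucleotides (244 and 1497, log2 2.66). None of the 15 passed 148 counts in a cell library, the value of Nudt1 in the library labelled shDis3l2.

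Some genes called higher on all transcripts were still at least 2-fold higher without their main transcript, and these are named with their values seen. Counts outside the main transcript are part of the gene total, so the main transcript alone need not be higher. Champ1, a zinc-finger protein of the chromosome segregation machinery, had 1978 and 9654 vesicle counts (log2 2.33), and 50 and 251 without its main transcript (log2 2.36). Traf3, a signalling adaptor of Toll-like and TNF family receptors, had 587 and 1486 (log2 1.39), and 78 and 532 outside (log2 2.81). Ifngr1, a chain of the interferon gamma receptor, had 121 and 261 (log2 1.15), and 35 and 157 outside (log2 2.20).

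Lower mRNAs were fewer. Ccdc7a, a coiled-coil protein gene, had 2293 counts under the label shNS and 561 under the label shDis3l2, 3.95-fold lower (log2 -1.98, interval -2.12 to -1.85). Pld2, a phospholipase D, had 933 and 283 (log2 -1.67). Its direction turned when the main transcript was left out, with 9 and 283 counts. Lama2, a laminin chain, had 1716 and 580 (log2 -1.52), and Ctsb, the lysosomal protease cathepsin B, 956 and 426 (log2 -1.12), with 162 and 44 outside its main transcript. Of the Lama2 counts 98.7% were on a retained-intron transcript.

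The most abundant lower gene was Mcm7, a subunit of the replicative helicase, with 61553 and 26396 vesicle counts (log2 -1.17). Its main transcript is a retained-intron model that holds Mir25 and Mir93, and outside it the gene had 279 and 325 counts (log2 0.27). Counts on that transcript therefore cannot be told apart from those of the miRNAs inside it. Small RNA genes lay inside the main transcript of 1.15% of all measured mRNA genes, of 0.478% of the higher and of 2.35% of the lower ones. A stretch of at least 20 nt shared with one of 177 abundant small RNAs was found in 7.85% of all, 10.2% of the higher and 12.9% of the lower genes. Without the genes that had either feature, 560 mRNA genes were higher and 73 lower.

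One such stretch recurred among the named genes, in Lef1, Cnot3 and Ncbp3, and it was a simple repeat. Lef1 and Cnot3 share the same 28 nt with the annotated scaRNA Gm22009, and the stretch is printed here to show that it holds no gene-specific letters.

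Lef1 and Cnot3, shared with Gm22009: tgtgtgtgtgtgtgtgtgtgtgtgtgtg

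Ncbp3 shared 30 nt that end in the same repeat, and the 3 genes had log2 ratios from -0.60 in Ncbp3 to 2.78 in Lef1. Genes with the repeat thus did not share a ratio.

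Among the most abundant mRNAs of the vesicles most were not called. Cdc37l1, a relative of the kinase chaperone Cdc37, had 88220 counts under the label shNS and 53309 under the label shDis3l2 (log2 -0.68), and Itfg2, which acts upstream of mTORC1, 75074 and 82755 (log2 0.19). Cnot3, a subunit of the CCR4-NOT deadenylase, had 41230 and 40222 (log2 0.01). Of these, 2 were higher, Chd9, a chromatin remodeller, with 20304 and 62585 counts (log2 1.67), and Lars2, the mitochondrial leucyl-tRNA synthetase, with 24018 and 57830 (log2 1.31). Each had over 99% of its counts on 1 transcript, as did the 3 genes named before them. That transcript was of the coding type in Cdc37l1 but not in Chd9, Lars2, Itfg2 and Cnot3. Outside their main transcripts Chd9 had 176 and 194 counts (log2 0.19) and Cdc37l1 367 and 96 (log2 -1.88). In cells Cdc37l1 had only 414 and 583 counts, whereas Lars2 had 14987 and 22862.

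The gene lists showed where groups of mRNAs stood against the median of 0.32. Of 55 interferon-stimulated genes 30 were measured, and their median log2 ratio was 0.66. Of these, 4 were higher (13.3%, against 8.72% of all mRNA genes) and none lower (1.18% of all), and 29 had a ratio above 0, as did 77.7% of all. Over the scales the median ran from 0.27 to 0.66. It started above the largest drop of any scale, so its sign could not change. Of the 30 genes, 24 lay above the mRNA median.

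The 4 called members were a transcription factor, a sensor and effectors of the interferon response. Irf7, the transcription factor that drives type I interferon, had 74 counts under the label shNS and 173 under the label shDis3l2 (log2 1.27). Outside its main transcript Irf7 had 74 and 81 counts (log2 0.18, interval -0.30 to 0.65), so its call rested on that transcript. Dhx58, an RNA sensor of the RIG-I family, had 33 and 75 (log2 1.22), Cxcl10, a chemokine, 81 and 165 (log2 1.07), and Oasl1, of the oligoadenylate synthetase family, 59 and 118 (log2 1.04). The most abundant member, Trim25, the ubiquitin ligase of RIG-I signalling, had 3996 and 5767 counts (log2 0.58) and was not called, and the lowest was Oas1g with 55 and 51 (log2 -0.06). In the cells the whole list summed to 1923 and 2053 counts, a log2 ratio of 0.19, and 6 members reached 100 counts over both cell libraries.

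Lysosomal and secretory-route genes stood at the other end. Of 37 such genes 34 were measured, the median was -0.30, and 32 of the 34 lay below the mRNA median. Most members of several other lists did too, such as 12 of 14 glycolysis and 36 of 48 respiratory chain genes. Of the 34 lysosomal and secretory-route genes, 3 were lower and 1 higher, beside 1.18% and 8.72% of all mRNA genes. The median was below 0 on every scale tried, from -0.69 to -0.30. Every other scale lowered all ratios, so this median could not have risen above 0. The proteases Ctsd (587 and 245 counts, log2 -1.21) and Ctsb and the proton pump subunit Atp6v0d1 (112 and 49, log2 -1.14) were lower. Outside its main transcript Ctsd had 262 and 0 counts, so part of its gap lay on those other transcripts. Lyz2, lysozyme, had 2161 and 1364 (log2 -0.62), and Lamp1, a membrane glycoprotein of lysosomes, 479 and 288 (log2 -0.69). Gpnmb, a glycoprotein of macrophage lysosomes, was higher with 1126 and 2335 counts (log2 1.10), but had 676 and 17 outside its main transcript, a retained-intron model. In cells Gpnmb had 239 and 34 counts and the list summed to 2338 and 1772 counts, a log2 ratio of -0.30.

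**Figure D3:**
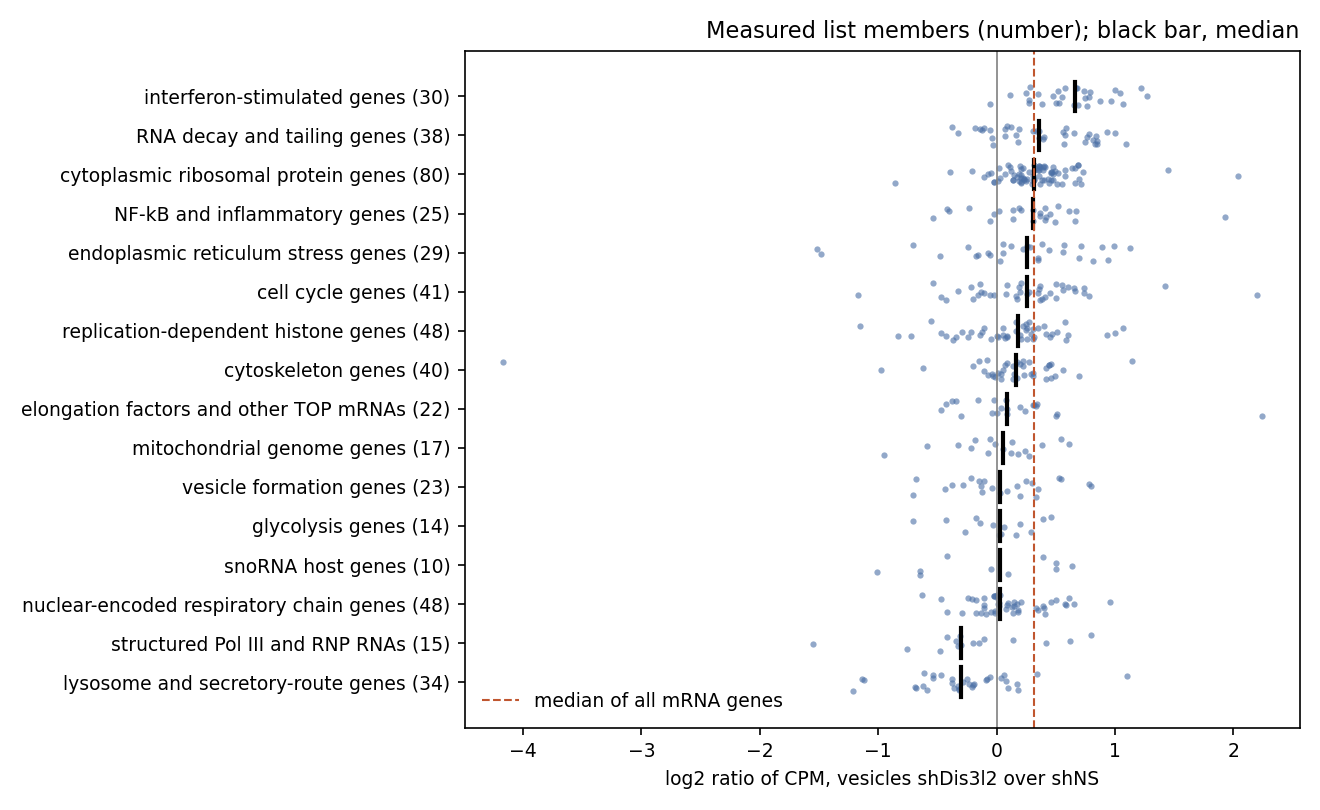
Log2 ratios of CPM, vesicles shDis3l2 over shNS, of the measured members of 16 gene lists, 1 point per gene, with black bars at the list medians, the number of members in brackets and a dashed line at the median of all mRNA genes (0.32). Interferon-stimulated genes (median 0.66) lie to the right and lysosomal genes (median -0.30) to the left of that line.

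Among genes of protein synthesis, those of ribosomal proteins were spread around the mRNA median. Of 22 elongation factor and similar genes, 17 lay below it. The 80 measured ribosomal protein genes had a median of 0.32, with 72 above 0, 2 higher and none lower, and on the total of protein-coding genes the median was -0.07. Calls in this and the next list stand beside 8.72% higher and 1.18% lower of all mRNA genes. Rpl41 was higher with 5152 and 13652 counts (log2 1.45), and outside its main transcript had 70 and 98. Rplp2, a protein of the ribosomal stalk, was higher from 40 and 161 counts (log2 2.04). Of 22 elongation factor and other TOP mRNAs, whose translation depends on a terminal oligopyrimidine tract, 1 was higher and the median was 0.08 (from -0.31 over the scales). That gene, Eif3f, had 2960 and 13573 counts (log2 2.24), 93.5% of them on a retained-intron transcript, and 407 and 661 outside it (log2 0.75).

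Of 25 NF-kB and inflammatory genes 1 was higher, Nfkbiz, an atypical IκB protein, with 44 and 164 counts (log2 1.93), and the median was 0.31. Of 29 endoplasmic reticulum stress genes, Pdia6, a disulfide isomerase, was higher (46 and 98 counts, log2 1.13). Asns, asparagine synthetase (188 and 63, log2 -1.52), and Trib3, a pseudokinase (76 and 26, log2 -1.48), were lower. Both are targets of Atf4, whose own fragments had 291 and 271 counts (log2 -0.06), as Chac1, another target, had 103 and 89 (log2 -0.16). The stress list had a median of 0.26. Its 1 higher and 2 lower members, and the 1 higher NF-kB gene, stand beside 8.72% higher and 1.18% lower of all mRNA genes.

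Of 38 RNA decay and tailing genes, 2 were higher, Tent4a, a non-canonical poly(A) polymerase (222 and 457, log2 1.09), and Exosc6, an exosome subunit (41 and 80, log2 1.00), and none lower (median 0.36). Over all mRNA genes 8.72% were higher and 1.18% lower. Outside its main transcript Tent4a had 103 and 147 counts (log2 0.56). The uridylyl transferases Tut4 and Tut7 had 88 and 147 and 98 and 141 counts (log2 0.78 and 0.57). Dcp2, the decapping enzyme, was the most abundant with 4871 and 8448 (log2 0.84). The medians of these 3 lists were below 0 on the total of protein-coding genes.

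The cytoskeleton list (40 measured, median 0.16) held the widest single gap of the 16 lists, Tpm4, a tropomyosin, with 195 and 10 counts in vesicles (log2 -4.17, interval -5.32 to -3.33) and 144 and 87 in cells. Tpm3 of the same family was higher, with 63 and 135 (log2 1.14). The cell cycle list (41 measured, median 0.26) held Kif23, a kinesin of cytokinesis (396 and 1766, log2 2.20), and Bub1b, of the spindle checkpoint (1732 and 4495, log2 1.42), both mainly on retained-intron transcripts, and Mcm7. Outside their main transcripts Kif23 had 139 and 203 counts (log2 0.59) and Bub1b 247 and 276 (log2 0.21). No gene was called among 23 vesicle formation, 14 glycolysis and 48 respiratory chain genes, with medians of 0.03, 0.03 and 0.02. Of the vesicle formation genes the tetraspanin Cd9, a marker of these particles, had 1703 and 1517 counts (log2 -0.12). Of 48 replication-dependent histone genes, 2 were higher and 1 lower (median 0.18). Calls in all these lists stand beside 8.72% higher and 1.18% lower of all mRNA genes. The medians of these lists were all below 0 on the total of protein-coding genes.

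Macrophage markers had a median of 0.17 over 17 genes, of which 1 was higher and 1 lower, beside 8.72% and 1.18% of all mRNA genes. Cd14, the co-receptor for lipopolysaccharide, was higher with 1075 and 3485 counts (log2 1.74), 80.1% on a retained-intron transcript, and Mpeg1, the pore-forming perforin-2, was lower with 532 and 212 (log2 -1.28). All 20 macrophage markers summed to 8293 and 9749 counts. Markers of other cells had lower sums, of which the neuronal list had the highest. The 6 fibroblast markers summed to 113 and 60 counts, the 5 lymphocyte markers to 41 and 62 and the 5 epithelial markers to 16 and 18. The 6 erythroid and serum markers summed to 68 and 172, of which Hbb-bs, a beta globin, gave 67 and 171 (log2 1.39), and 3 were at 0 in both libraries. The 4 neuronal markers summed to 972 and 2742, nearly all on Map2 (928 and 2599, log2 1.53), with Syt1 at 33 and 132, and both were higher. The 4 endothelial markers summed to 82 and 80. The part of these genes in the other results was not tested.

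Long noncoding RNAs and pseudogenes were called higher more often than mRNAs. Of 491 lncRNA genes, 164 (33.4%) were higher and 19 lower, with a median log2 ratio of 0.65, and of 201 pseudogenes 58 (28.9%) were higher and 14 lower (median 0.53). The background over all classes was 10.4% higher and 2.52% lower. The lncRNA 4930555F03Rik had 177 counts under the label shNS and 1465 under the label shDis3l2 (log2 3.09) and 6 and 0 in cells, and Gm12972 had 378 and 2748 (log2 2.91). The most abundant pair of lncRNA genes, Gm42427 and Gm43305, held more counts than all other lncRNA genes together. Gm42427 had 1020447 and 1419710 counts (log2 0.52) and Gm43305 276808 and 539081 (log2 1.01), against 4841 and 6052 and 1404 and 1923 in the cells. Without the 10 most abundant genes in the total, the median mRNA ratio was 0.28.

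Host transcripts of miRNAs were among the lowest lncRNAs. Mir22hg had 1859 and 527 counts in vesicles (log2 -1.77) and 4726 and 549 in cells. E130102H24Rik, which holds Mir101a, had 35625 and 14317 (log2 -1.27), and Mir17hg, which holds 6 miRNA genes, 152465 and 63117 (log2 -1.23), with 435924 and 433675 in cells. Mir17 itself had 0 and 754 vesicle counts, and reads of the hairpin and of its host cannot be told apart. Among pseudogenes AC123930.1 had 0 and 962 counts and was at least 331-fold higher, taking the floor of 3 counts for the library at 0.

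**Figure D4:**
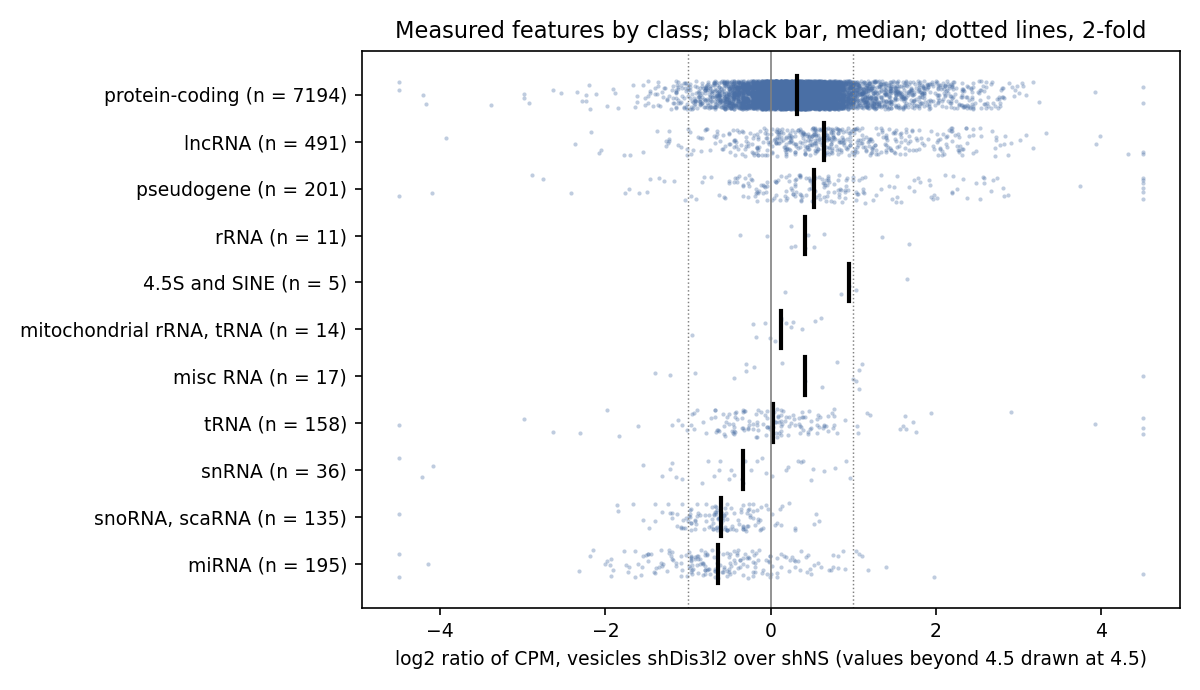
Log2 ratios of CPM, vesicles shDis3l2 over shNS, of the measured features of 11 classes, 1 point each, with black bars at the class medians, dotted lines at 2-fold and ratios beyond 4.5 drawn at 4.5 (3 genes of other types are not shown). Medians run from 0.95 for 4.5S and SINE sequences and 0.65 for lncRNAs to -0.60 for snoRNAs and -0.64 for miRNA hairpins.

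The short nuclear RNAs were lower as a group. Of 135 snoRNA and scaRNA genes, which guide the modification of rRNA and snRNA, 23 (17.0%) were lower and none higher, with a median of -0.60 and 123 below 0. Of 36 snRNA genes, the RNAs of the splicing and histone-processing machinery, 9 (25%) were lower and none higher (median -0.34). The background over all classes was 2.52% lower and 10.4% higher. In cells the shares of all counts went the other way, from 8.70% to 11.1% for snoRNAs and from 0.230% to 0.525% for snRNAs.

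By the naming rule the lowest snRNA gene was Rnu7, which encodes the U7 RNA that directs the cleavage of histone pre-mRNA, followed by the pair Gm24407 and Gm24265. The lowest snoRNA genes were Gm25835, Snord55 and Snord104. The sequences of Rnu7, Gm25835 and Snord104 are given from the GENCODE transcripts on GRCm38. Capitals mark TTTGTCT, the core of the site where U7 binds its ring of Sm and Lsm proteins, and in the snoRNAs the first TGATGA and the last CTGA, letters of the C and D boxes. Only the printed strand was searched, and TTTGTCT was found in 1 of 36 measured snRNA genes (2.78%) and TGATGA with a later CTGA in 82 of 135 snoRNA and scaRNA genes (60.7%).

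Rnu7, chr6:124741225-124741286, minus strand: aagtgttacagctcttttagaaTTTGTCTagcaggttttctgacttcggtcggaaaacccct

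Gm25835, chr11:69668852-69668995, minus strand: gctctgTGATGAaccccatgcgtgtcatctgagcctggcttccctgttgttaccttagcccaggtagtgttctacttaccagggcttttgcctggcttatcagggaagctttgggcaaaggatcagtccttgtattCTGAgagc

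Snord104, chr11:106500993-106501062, plus strand: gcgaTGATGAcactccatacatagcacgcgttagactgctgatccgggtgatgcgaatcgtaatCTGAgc

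Rnu7 had 10869 counts under the label shNS and 3603 under the label shDis3l2, 2.92-fold lower (log2 -1.55, interval -1.60 to -1.49). In the cell libraries it had 8064 and 10053. Gm25835 had 17115 and 5990 vesicle counts (log2 -1.47) and 29935 and 67181 in cells. Snord55 had 1399 and 581 (log2 -1.22), and Snord104 2454 and 1031 (log2 -1.20), beside 10519 and 35973 and 16023 and 30850 in cells. All 4 were lower in vesicles and had more counts in cells under the label shDis3l2. The most abundant snoRNA of the cells, Gm23212, had 5993 and 5847 counts in vesicles (log2 0.01), and Snora17 had 791 and 1156 (log2 0.59).

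A pair of snRNA genes of nearly the same sequence had nearly the same ratio. Gm24407 (1889 and 736 vesicle counts, log2 -1.31) and Gm24265 (2407 and 1003, log2 -1.22) lie close together on chromosome 5 and differ at A88G and A99C, the letter of Gm24407 first and positions counted from the 5′ end. Reads outside these positions cannot be assigned to either gene. The U1 gene Rnu1a1, whose RNA pairs with the 5′ splice site, had 9038 and 7065 (log2 -0.31). Of the snoRNA host genes, whose introns carry snoRNAs, Snhg1 was lower with 914 and 438 (log2 -1.01), also outside its main transcript (401 and 187, log2 -1.05), and it was the only one called of 10 measured (median 0.02).

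Among RNAs made by RNA polymerase III the Y RNAs, which bind the Ro60 protein, were the most abundant after tRNAs. The sequences of Rny1 and of the annotated RNA Gm24379 are given with their longest shared stretch of 24 nt in capitals, since a fragment from it cannot be assigned to either, and Rny3 with the longest stretch it shares with Rny1, 12 nt.

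Rny1, chr6:47788069-47788180, minus strand: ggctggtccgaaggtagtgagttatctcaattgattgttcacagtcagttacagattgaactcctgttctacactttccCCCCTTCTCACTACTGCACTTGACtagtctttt

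Gm24379, chr2:158487602-158487687, plus strand: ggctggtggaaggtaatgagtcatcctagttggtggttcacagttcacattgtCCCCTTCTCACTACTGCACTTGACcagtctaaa

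Rny3, chr6:47781624-47781725, plus strand: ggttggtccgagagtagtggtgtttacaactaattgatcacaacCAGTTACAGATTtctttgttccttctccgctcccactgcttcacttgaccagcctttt

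Gm24379 had 374351 vesicle counts under the label shNS and 137541 under the label shDis3l2 (log2 -1.40), Rny1 148269 and 116503 (log2 -0.30), and Rny3 191735 and 204073 (log2 0.14). Of the RNAs with the 24 nt stretch Gm24379 was lower and Rny1 was not called, and neither was Rny3. 7SL RNA, the scaffold of the signal recognition particle, had 55574 and 82682 counts in Rn7s1 (log2 0.62), and Rpph1, the RNA of RNase P, 2625 and 4427 (log2 0.80). The list of structured RNAs was not limited to RNA polymerase III and also held snRNAs such as Rnu1a1 and Rnu7. Of its 15 measured members none was higher and 1, Rnu7, was lower (median -0.30). The 4.5S sequence had 6831 and 20690 counts (log2 1.65, interval 1.61 to 1.68), against 3455 and 2372 in cells. SINE_B2 had 161 and 318 (log2 1.03).

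**Figure D5:**
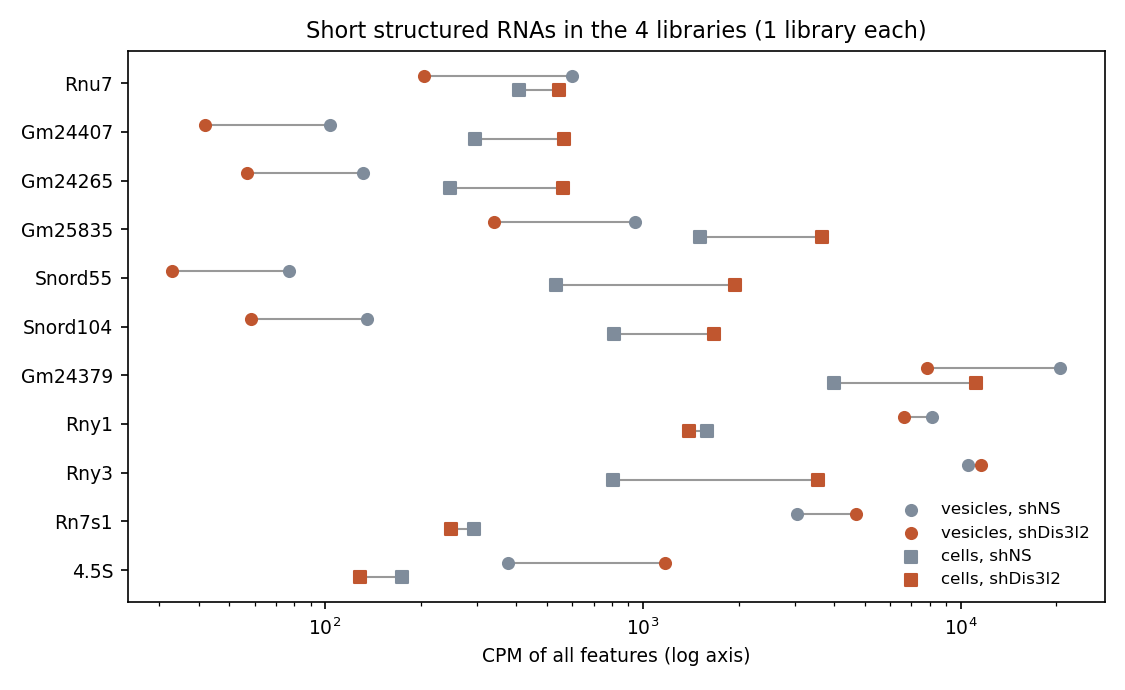
CPM of all features (log axis) of 11 short structured RNAs in the vesicle libraries (circles) and cell libraries (squares) labelled shNS (grey) and shDis3l2 (orange), 1 library each. U7, the snRNA pair, the 3 snoRNAs and Gm24379 are lower in vesicles and higher in cells under the label shDis3l2, while the 4.5S RNA is higher in vesicles (1175 against 376 CPM) and lower in cells.

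Of 11 rRNA genes 2 (18.2%) were higher and none lower, beside 10.4% and 2.52% over all classes. The 2 higher genes were the 5S copies n-R5s2, with 68 and 210 counts (log2 1.67), and n-R5s8, with 198 and 490 (log2 1.35). CT010467.1, an rRNA gene on chromosome 17, had 196341 and 273246 counts (log2 0.52), and the more abundant 5S copies n-R5s102 and n-R5s112 17238 and 22726 (log2 0.45) and 11719 and 8794 (log2 -0.37). The copies of 5S are near-identical, so their division is uncertain. No mitochondrial rRNA or tRNA of 14 was called (median 0.12), and mt-Rnr2, the large mitochondrial rRNA, had 1794 and 1973 vesicle counts against 171375 and 151905 in cells. The 17 measured genes of the mitochondrial genome had a median of 0.05, and none was called.

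tRNA fragments held the largest share of both vesicle libraries, 38.5% and 35.4%, and their ratios lay on both sides of 0, also within an isotype. Of 48 anticodons with at least 100 counts, 1 was higher, Pro-AGG (42 and 309 counts, log2 2.91), and 1 lower, Arg-CCG (20968 and 7665, log2 -1.41). Lysine tRNAs were the most abundant, with 1625990 and 1027721 counts for anticodon CTT (log2 -0.62) and 813699 and 429176 for TTT (log2 -0.88), and Arg-TCT had 535377 and 292343 (log2 -0.83). Val-CAC, the third most abundant anticodon, had 724667 and 612344 (log2 -0.20). Above 0 lay Gly-GCC (497860 and 625824, log2 0.38), Glu-CTC (457630 and 618706, log2 0.48), Val-AAC (331054 and 472006, log2 0.56) and Gln-TTG (42461 and 70343, log2 0.77). Genes of 1 anticodon did not always go together. tRNA-Lys-TTT-1-1 had 811485 and 425102 counts (log2 -0.89) but tRNA-Lys-TTT-2-1 1072 and 3195 (log2 1.62), and reads common to such copies were divided by estimation.

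miRNA hairpins were lower on the scale of all features, with 50 of 195 (25.6%) at least 2-fold lower and 7 (3.59%) higher (median -0.64, and 155 below 0). Over all classes 2.52% of features were lower and 10.4% higher. The hairpins Mir96, Mir125a and Mir103-2 had the lowest ratios by the naming rule. A count is that of the whole hairpin, so both mature arms are printed from RefSeq (GRCm38.p6), with the seed (bases 2 to 8) in capitals. No seed was shared among the 6.

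mmu-miR-96-5p, chr6:30169506-30169528, minus strand: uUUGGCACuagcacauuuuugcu

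mmu-miR-96-3p, chr6:30169465-30169486, minus strand: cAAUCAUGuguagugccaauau

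mmu-miR-125a-5p, chr17:17830817-17830840, plus strand: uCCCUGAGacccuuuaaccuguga

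mmu-miR-125a-3p, chr17:17830855-17830876, plus strand: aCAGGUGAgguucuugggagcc

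mmu-miR-103-2-5p, chr2:131288066-131288088, plus strand: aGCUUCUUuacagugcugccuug

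mmu-miR-103-3p, chr2:131288103-131288125, plus strand: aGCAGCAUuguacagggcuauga

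Mir96 had 1640 counts under the label shNS and 358 under the label shDis3l2 (log2 -2.15), Mir125a 15164 and 3657 (log2 -2.01), and Mir103-2 27213 and 6879 (log2 -1.94). In cells these hairpins had 3914 and 1588, 167582 and 42061, and 139963 and 109432 counts, also fewer under the label shDis3l2. The most abundant hairpin, Mir16-1, had 468296 and 254413 vesicle counts (log2 -0.83) and was not called. Mir142, a miRNA of blood cells, was lower with 265022 and 121711 (log2 -1.08).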

How the data were processed

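Small RNA libraries were compared by RNA class and gene. Per the submitters' processing notes, the authors used cutadapt, Salmon and Novoalign with builds GRCm38 and mm10, without versions. The authors deposited estimated counts for each transcript (6.56% whole within 0.001), rounded here to whole numbers for intervals. Whether molecular tags were collapsed is not stated in these sources. Of 141239 features, 139791 were named from GENCODE M21, 239 are tRNA and 8 repeat rows, and 1201 unnamed transcripts entered totals only. Transcripts were summed per gene.

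Ratios are log2 ratios of CPM of all features with a pseudocount of 0.5, with exact conditional (Clopper-Pearson) 95% intervals (Python 3.11.15, scipy 1.17.1). With 1 library per group no p-value was computed, and intervals and floors cover counting error only. Members and lists were chosen with earlier results of these data known. Named mRNAs are the 15 highest and 15 lowest with at least 50 CPM in 1 vesicle library and an interval that excludes 1, and the 10 most abundant of each library. Other classes are represented by the 3 highest, 3 lowest and 3 most abundant, and lists by called, extreme and abundant members. Values are printed for some of these, and any other feature named was chosen after its values were seen.

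Alternatives were edgeR 4.0.16 TMM factors, DESeq2 1.42.0 size factors, 3 other totals, count minimums of 10 and 1000, a pseudocount of 5, thinning and single transcripts. Leaving out main transcripts, or genes that hold or share small RNA sequence, was added after the data were seen. Sequences come from GENCODE M21 and the RefSeq miRNA table, in which all 3 hairpins searched for were found. A few of the named features and 1 sequence are not reported here.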

Additional observations from a re-analysis of the deposited data

Results flagged for a closer look

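The following classes and features differed in direction between vesicles and cells under the same pair of labels, and with 1 library per group the difference was not tested. RNAs annotated as miscellaneous had a log2 ratio of shares, shDis3l2 over shNS, of -0.42 in vesicles and 1.26 in cells, snRNAs -0.42 and 1.19, snoRNAs with scaRNAs -0.68 and 0.36, repeat sequences 1.60 and -0.40, and transcripts of other types, such as those subject to nonsense-mediated decay, 0.43 and -0.20. Single features at least 2-fold apart in opposite directions were Gm24265 (-1.22 in vesicles and 1.18 in cells), Gm24379 (-1.40 and 1.48), Gm25835 (-1.47 and 1.27), Snord104 (-1.20 and 1.05), Snord55 (-1.22 and 1.87) and SINE_B2 (1.03 and -1.12).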

How the results depend on the processing

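No paired analysis was possible because each group has 1 library. Counts of genes higher and lower moved by over 1.5 times under these settings. Lower mRNA genes numbered 162 on TMM factors, 142 on size factors of DESeq2 and 228 on the total of protein-coding genes, and lower features of all classes 376, 341 and 493. On the total of protein-coding genes 352 mRNA genes and 523 features of all classes were higher, and the mRNA median turned to -0.07. With a count minimum of 10, 1466 mRNA genes were higher and 512 lower (all classes 2317 and 1005), and with 1000 it was 262 and 12 (376 and 71), over more or fewer genes by construction. Single transcripts gave 1159 and 342 (1425 and 473), and genes without their main transcript 292 and 186, over the rest of each gene. Without its main transcript the ratio of Pld2 was 4.95 and that of Mcm7 0.27, both against their direction with it; the cause was not tested. Thinning, a pseudocount of 5 and the total without the 10 most abundant genes moved none of the 4 counts by as much. Of the ratios of 115 named features, 112 left their interval with TMM factors, 106 with size factors, 114 on the total of protein-coding genes, 90 on the total outside miRNA hairpins, 45 on that without the 10 most abundant genes and 1 with a pseudocount of 5. Of 16 lists, only those of interferon-stimulated, lysosomal and structured RNA genes kept the sign of their median over the 6 scales. Each other scale lowers all ratios alike, so this follows from the medians on the total of all features. Depth limits genes with few counts, and the spread between libraries of 1 group is unknown.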

Other observations

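Of the 32 protein-coding genes that were called the same way with and without their main transcript, 5 were lower: Apobec1, the cytidine deaminase that edits apolipoprotein B mRNA (505 and 197 vesicle counts with the labels shNS and shDis3l2, log2 -1.31), Ctsd, Ero1l, the oxidase of the endoplasmic reticulum that supports disulfide formation (631 and 281, log2 -1.12), Ctsb, and Eno2, a glycolytic enolase (118 and 53, log2 -1.10). In the cell libraries Apobec1 had 136 and 39 counts, Ero1l 77 and 25, and Eno2 28 and 9. In vesicles Ctsd had 262 and 0 counts outside its main transcript, so part of its gap lay on those other transcripts. All 5 genes had fewer counts with the label shDis3l2 in cells too, where Ctsd had 56 and 45 and Ctsb 157 and 96. These genes were chosen after their values were seen. Counts outside the main transcript are part of the gene total, so the same call with and without it is partly built in. Of all 1877 genes with 100 counts outside it, 15.6% were higher and 9.91% lower there. Among genes already called the same way, these shares were 19.1% and 33.3%. Gene counts as low as these carry wide counting intervals, and no replicate was at hand.

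Features at 0 in 1 vesicle library numbered 18 among those measured, and several are copies of another gene. tRNA-Cys-GCA-5-1 had 0 and 292 counts and tRNA-Cys-GCA-7-1 369 and 0, while all Cys-GCA rows together had 122301 and 79265. Rpl17-ps10 and Rps13-ps1, pseudogenes of ribosomal proteins, had 0 and 178 and 0 and 185.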
